A study of Mus musculus with 8 samples.

Results

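The genes described here are 10 components of bone morphogenetic protein (BMP) signalling. They are the ligand genes Bmp2, Bmp4 and Bmp7, the antagonist gene Grem1, the receptor genes Bmpr1a, Bmpr1b and Bmpr2, and the target genes Id1, Id2 and Id3. They were taken by gene name from a raw count table of 43346 mouse genes, and each name occurred once. The table covers 4 libraries of LLC1 cells and 4 of MLE12 cells, all grown to near confluence with no reagent added. LLC1, the Lewis lung carcinoma line, arose as a lung tumour in a C57BL mouse. MLE12 cells are lung epithelial and derive from a mouse whose surfactant protein C promoter drove the SV40 large T antigen. Both are established lines bought from a cell bank, each is represented by a single line, and both come from tumours.

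BMPs are secreted dimers of the TGF-beta superfamily that assemble type I and type II serine/threonine kinase receptors. The active type I receptor phosphorylates SMAD1, SMAD5 and SMAD9, which join SMAD4 in the nucleus and switch on targets, among them the ID genes and the inhibitory SMADs. Gremlin, noggin and chordin bind BMPs outside the cell and keep them from their receptors. ID proteins carry a helix-loop-helix domain without a DNA-binding region, so they hold E proteins and other partners away from DNA. In the developing lung, Bmp4 is made by the epithelium of the growing distal tips. The libraries measured RNA; SMAD phosphorylation and secreted protein were not analysed here.

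Library totals were 46840648 to 55285307 counts in LLC1 and 48643667 to 76722481 in MLE12. Nothing in the labels tells separate cultures from repeat libraries of 1 culture, so the p-values reflect only the spread among these libraries, and that spread may be technical. Levels are in CPM, counts scaled to TMM-adjusted library size, and means are given ± SD with n = 4 per line. Fold changes are on the log2 scale, ± SE, with LLC1 on top. Adjusted p-values are those of the quasi-likelihood test of edgeR, corrected by Benjamini-Hochberg over all genes tested. As a check of the labels, the lung transcription factor gene Nkx2-1 stood at 0.664 ± 0.109 CPM in LLC1, against 147 ± 6.39 CPM in MLE12. Of 7 lung epithelium markers, Krt8 and Krt18 were higher in LLC1 and the other 5 in MLE12, and the list summed to 482 to 517 CPM in LLC1 libraries and 455 to 480.1 CPM in MLE12 libraries. The LLC1 sum was nearly all Krt8 and Krt18, with means of 209 and 293 CPM. Of the 6 fibroblast markers tested, 2 were higher in LLC1 and 4 in MLE12, with sums of 1417 to 1551 CPM in LLC1 libraries and 336 to 374 CPM in MLE12 libraries. These sums were nearly all Col3a1 in LLC1 (mean 1478 CPM) and mostly Dcn in MLE12 (mean 319 CPM). The 6 endothelial markers summed to 0.609 to 1.16 CPM in LLC1 libraries and 3.44 to 4.09 CPM in MLE12 libraries. The leukocyte marker Ptprc had 0 counts in LLC1 and 2 in MLE12, while that list summed to 17.8 to 20.4 CPM in LLC1, against 13.8 to 16.4 CPM in MLE12, nearly all of it Cd68 and Csf1r.

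Of the tested BMP and ID genes, Grem1 and Bmp4 had the widest differences between the lines. LLC1 had abundant Grem1 and little Bmp4, while MLE12 had Bmp4 and almost no Grem1. Id1 and Id3 were lower in LLC1 than in MLE12, and Id2 was higher. Of the 10 genes, 8 had enough counts to be tested and all 8 passed the threshold of 0.05, where 81.6% of the 18546 genes tested did so. Grem1 and Id2 were higher in LLC1 (background 40.7%), and Bmp2, Bmp4, Bmpr1a, Bmpr2, Id1 and Id3 were lower in LLC1 (background 40.9%). Against a minimum fold of 2, Bmpr2 fell short and the other 7 passed, beside 33.7% of all genes tested. Grem1 and Bmp4 passed the filter on low counts through the line where they were high, so these counts are a description only. Bmp7 and Bmpr1b had too few counts in both lines to be tested. In libraries made from whole cultures, fewer cells that express a gene and less of its RNA per cell cannot be told apart.

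**Figure D1:**
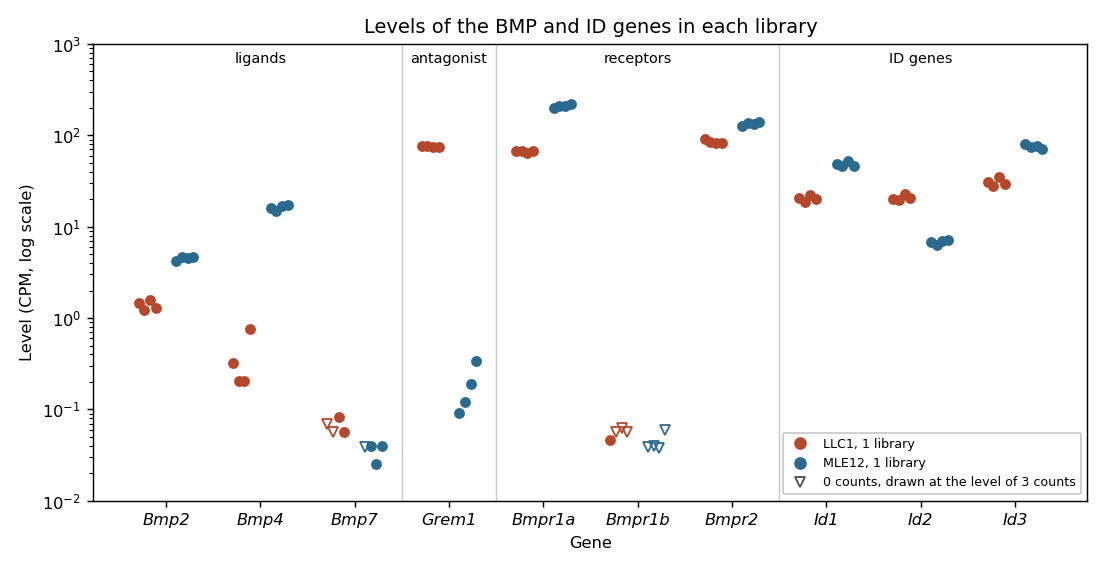
Level in CPM (log axis) of each BMP and ID gene in each library, with LLC1 libraries left of MLE12 libraries; open triangles are libraries with 0 counts, drawn at the level of 3 counts. The LLC1 and MLE12 points of the 8 tested genes do not overlap, with Grem1 near 75.1 CPM in LLC1, against 0.185 CPM in MLE12, as the widest gap. The share of all genes tested without overlap was not counted, and 81.6% of them passed the adjusted p threshold of 0.05.

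**Figure D2:**
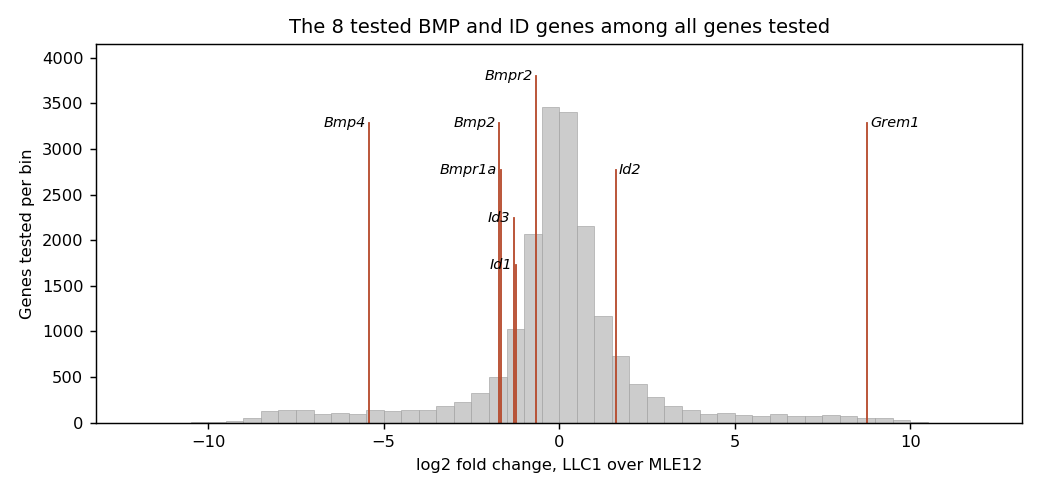
Histogram of the log2 fold changes (LLC1 over MLE12) of the 18546 genes tested, in bins of 0.5, with lines at the 8 tested BMP and ID genes; line heights only separate the names. Grem1 (8.76) lies in the right tail, Bmp4 (-5.41) in the left tail and Bmpr2 (-0.66) near the centre.

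Bmp4 was the ligand gene among the 3 with the wider difference. It encodes the ligand best known from distal lung epithelium and lies on chromosome 14 at 46383520 to 46390669 (mm10; ENSMUSG00000021835). It stood at 0.324, 0.206, 0.207 and 0.761 CPM in LLC1 libraries 1 to 4, against 16.0, 14.9, 17.0 and 17.2 CPM in MLE12 libraries 1 to 4. The groups did not overlap, and LLC1 replicate 4 was above the other 3 LLC1 libraries. The log2 fold change was -5.41 ± 0.22 (adjusted p = 4.7e-12). Without LLC1 replicate 4 it was -6.05, and the LLC1 mean was 0.245 ± 0.0677 CPM (n = 3) in place of 0.374 ± 0.264 CPM. That library held 40 counts of Bmp4, against 14, 11 and 10 in the other LLC1 libraries. Its Nkx2-1 level was the lowest of the 4 LLC1 libraries (27 counts, against 33, 35 and 35), and its Cdh1 count was 31, against 22, 32 and 25. On the strand opposite to Bmp4, the annotation places the antisense gene Gm15222, with 0 counts in LLC1 and 316 in MLE12, and Gm15217, with 2 in LLC1 and 37 in MLE12. Without a stated counting strand, reads of Bmp4 cannot be told apart from those of these partners.

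Bmp2 was low in both lines. This ligand gene, known for bone and heart development, lies on chromosome 2 at 133552159 to 133562885 (ENSMUSG00000027358). It stood at 1.48, 1.22, 1.57 and 1.29 CPM in LLC1, against 4.22, 4.68, 4.57 and 4.62 CPM in MLE12. Every LLC1 library was below every MLE12 library, and the log2 difference was -1.70 ± 0.14 (adjusted p = 7.2e-10). Bmp7, a ligand gene of kidney and eye development (chromosome 2, 172868012 to 172940321, ENSMUSG00000008999), had 0, 0, 4 and 3 counts in LLC1 and 0, 3, 2 and 2 in MLE12. Summed over libraries, these were 0.0354 CPM in LLC1, against 0.0249 CPM in MLE12. No difference in Bmp7 was detectable at this depth.

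Grem1 had the reverse pattern. It encodes gremlin, a secreted protein that binds BMP2, BMP4 and BMP7, and lies on chromosome 2 at 113746164 to 113758646 (ENSMUSG00000074934). It stood at 75.8, 76.3, 74.4 and 73.8 CPM in LLC1, against 0.0906, 0.119, 0.190 and 0.340 CPM in MLE12. The LLC1 libraries lay close together, and the MLE12 libraries held 7, 9, 15 and 17 counts. The log2 fold change was 8.76 ± 0.12 (adjusted p = 5.5e-21), which placed Grem1 at percentile 99.3 of the fold changes of all genes tested. MLE12 replicate 4, the highest in Grem1 of its line, was also the highest in the LLC1-rich collagen gene Col3a1 (4.14 CPM, against 2.03, 2.27 and 2.37 CPM in MLE12 replicates 1, 2 and 3). Its part in the low Grem1 counts of MLE12 was not tested.

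The windows before the start sites of the genes with the widest difference each way, Grem1 and Bmp4, and of Id2, the ID gene that was higher in LLC1, are shown because their genes moved in opposite directions or against their family. They are the 250 bases upstream of the RefSeq start, 5′ to 3′ along the gene's strand, and 7 of the 10 genes had such a window. Capitals mark GGCGCC, a GC-rich element bound by SMAD1 and SMAD5, and the SMAD box GTCT, searched on both strands, so that GTCT also appears as AGAC.
Grem1 (GRCm38.p6, chr2:113758649-113758898, minus strand): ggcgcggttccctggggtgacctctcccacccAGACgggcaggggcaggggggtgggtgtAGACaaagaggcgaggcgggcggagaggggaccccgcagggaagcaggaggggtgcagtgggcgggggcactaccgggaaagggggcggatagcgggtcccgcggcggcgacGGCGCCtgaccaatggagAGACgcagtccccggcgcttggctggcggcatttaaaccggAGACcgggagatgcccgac
Bmp4 (GRCm38.p6, chr14:46390670-46390919, minus strand): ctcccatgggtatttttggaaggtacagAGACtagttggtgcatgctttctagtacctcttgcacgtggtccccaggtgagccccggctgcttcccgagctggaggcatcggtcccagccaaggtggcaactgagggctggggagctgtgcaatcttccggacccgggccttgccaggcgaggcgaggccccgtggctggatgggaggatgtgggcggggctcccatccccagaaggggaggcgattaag
Id2 (GRCm38.p6, chr12:25096093-25096342, minus strand): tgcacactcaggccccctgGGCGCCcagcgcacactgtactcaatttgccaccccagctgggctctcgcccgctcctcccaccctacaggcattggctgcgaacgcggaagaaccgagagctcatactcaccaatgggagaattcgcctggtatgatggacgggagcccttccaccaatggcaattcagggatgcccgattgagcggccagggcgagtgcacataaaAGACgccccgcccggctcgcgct
The Grem1 window held 1 GGCGCC and 4 GTCT matches, the Bmp4 window 0 and 1, and the Id2 window 1 and 1. Among the windows not printed, those of Bmpr1a and Bmpr2, both lower in LLC1, held 1 GGCGCC and 0 GTCT matches each. The Id3 window, also of a gene lower in LLC1, held 0 and 2, so GGCGCC did not follow the direction of the difference. GGCGCC occurred in 9.59% of all 32851 RefSeq windows of this length and GTCT in 82.9%. The matches are letters only; binding was not measured.

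Both expressed receptor genes among the 10 genes were lower in LLC1. Bmpr1a encodes a type I receptor for BMP2 and BMP4, which is needed for lung epithelial development in mice (chromosome 14, 34410734 to 34503341, ENSMUSG00000021796). It stood at 66.6, 67.2, 64.0 and 66.9 CPM in LLC1, against 199, 210.3, 212 and 219.6 CPM in MLE12, with no overlap. Its log2 fold change was -1.67 ± 0.04 (adjusted p = 1.5e-17). Bmpr2, the type II receptor gene known for its mutations in pulmonary arterial hypertension in humans (chromosome 1, 59763400 to 59879014, ENSMUSG00000067336), stood at 92.1, 84.8, 81.8 and 81.6 CPM in LLC1, against 126, 138, 133 and 139 CPM in MLE12. The difference was smaller, at -0.66 ± 0.05 (adjusted p = 2.2e-10), and did not pass the test against a minimum fold of 2. Per kilobase of gene length, Bmpr1a stood at 10.4 ± 0.231 CPM per kb in LLC1 and 33.1 ± 1.32 CPM per kb in MLE12, and Bmpr2 at 4.73 ± 0.272 CPM per kb in LLC1 and 7.45 ± 0.322 CPM per kb in MLE12. The ratio of Bmpr1a to Bmpr2 on this scale was 2.21 ± 0.115 in LLC1 and 4.45 ± 0.0872 in MLE12. Bmpr1b, the gene of the other BMP type I receptor among the 10 genes (chromosome 3, 141837136 to 142169425, ENSMUSG00000052430), had 2 counts in LLC1, both in replicate 1, and 0 in MLE12. A count of 0 over the 4 MLE12 libraries allows up to 0.0107 CPM, and both lines were under the floor of 3 counts over a line. Antisense Gm17110 overlaps Bmpr1a with 137 counts in LLC1 and 490 in MLE12, and Gm38125 lies within Bmpr2 on its own strand with 109 in LLC1 and 75 in MLE12; their reads may be shared with the receptor genes.

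The ID genes did not move together. Id1 and Id3 were lower in LLC1, by similar amounts, and Id2 was higher. Id1 (chromosome 2, 152736251 to 152737410, ENSMUSG00000042745), a widely used transcriptional readout of BMP signalling, stood at 20.8, 18.6, 22.03 and 20.2 CPM in LLC1, against 48.5, 45.8, 52.5 and 46.0 CPM in MLE12. The log2 fold change was -1.24 ± 0.06 (adjusted p = 4.2e-13). Id3 (chromosome 4, 136143497 to 136145755, ENSMUSG00000007872), whose loss together with that of Id1 impairs the growth of blood vessels in mice, stood at 31.1, 27.7, 35.0 and 29.7 CPM in LLC1, against 79.8, 73.8, 76.8 and 70.9 CPM in MLE12. Its change was -1.29 ± 0.06 (adjusted p = 4.8e-13), within 1 SE of that of Id1; the difference between the 2 was not tested. Neither gene had overlapping lines. Id2 (chromosome 12, 25093801 to 25096092, ENSMUSG00000020644), which is needed for natural killer and innate lymphoid cells and is also a marker of lung distal tip progenitors, stood at 20.2, 19.5, 22.5 and 20.7 CPM in LLC1, against 6.79, 6.31, 6.95 and 7.20 CPM in MLE12. All LLC1 libraries were above all MLE12 libraries, at 1.61 ± 0.07 (adjusted p = 1.1e-13). Within LLC1, replicate 3 was the highest library and replicate 2 the lowest for each of Id1, Id2 and Id3.

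Levels of the ID genes per length were nearly equal in LLC1. They stood at 17.6 ± 1.23, 16.3 ± 1.02 and 17.2 ± 1.73 CPM per kb for Id1, Id2 and Id3 in LLC1. Id2 was still slightly the lowest, at 31.1 to 32.7% of their sum in the LLC1 libraries. Id1 made up 33.7 to 35.0% there and Id3 33.0 to 34.7%. In MLE12 the levels of Id1, Id2 and Id3 were 41.6 ± 2.69, 5.37 ± 0.296 and 42.1 ± 2.14 CPM per kb. Id1 and Id3 thus lay within each other's spread in MLE12, and Id2 lay below both. Id2 thus made up 31.9 ± 0.770% of the summed ID level per length in LLC1 and 6.04 ± 0.426% in MLE12. The sum of the 3 was 51.2 ± 3.91 CPM per kb in LLC1 and 89.0 ± 4.33 CPM per kb in MLE12. The Id2 values rest on a length of 1270 bases in the deposited table. With the 2438 bases of GENCODE M21, a choice added after seeing the data, the Id2 share was 19.6% in LLC1 and 3.24% in MLE12. That moves Id2 further below Id1 and Id3 in LLC1. Among all genes tested, Id1 ranked at percentile 79.6 of the level per length in LLC1 and 91.9 in MLE12, and Id3 at 79.2 in LLC1 and 92.0 in MLE12.

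**Figure D3:**
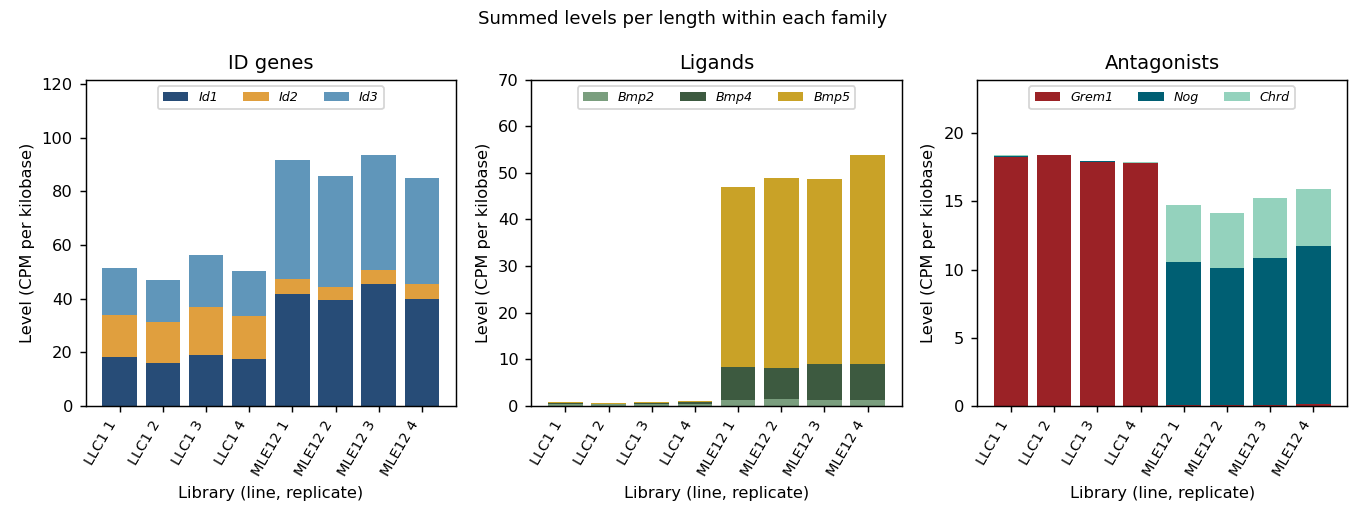
Stacked level per length (CPM per kb) in each library, LLC1 libraries left of MLE12 libraries, for the ID genes, for the ligand genes Bmp2, Bmp4 and Bmp5, and for the antagonist genes Grem1, Nog and Chrd. The ID sum is lower in LLC1 (51.2 CPM per kb, against 89.0 in MLE12) with a larger Id2 part. The bar of Grem1, Nog and Chrd, which holds no other antagonist or modulator gene, is nearly all Grem1 in LLC1 and mostly Nog in MLE12.

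E proteins, the main partners of the ID proteins, differed chiefly in Tcf4. Tcf4, which encodes the E protein E2-2, stood at 291 ± 7.39 CPM in LLC1, against 35.6 ± 0.852 CPM in MLE12 (log2 fold change 3.03 ± 0.04, adjusted p = 1.9e-21). Tcf12, which encodes HEB, stood at 211 ± 5.41 CPM in LLC1, against 153 ± 2.22 CPM in MLE12 (0.47 ± 0.04, adjusted p = 1.5e-09). Tcf3, the gene of E12 and E47, stood at 201 ± 16.8 CPM in LLC1, against 195 ± 15.3 CPM in MLE12, and did not pass the test (0.04 ± 0.06, adjusted p = 0.56). Its 95% interval ran from -0.08 to 0.16, and its sign changed when libraries were scaled by their totals alone (-0.06). The summed E protein level per length was 87.1 ± 3.60 CPM per kb in LLC1 and 61.1 ± 3.82 CPM per kb in MLE12. The ratio of the summed ID to the summed E protein level per length was 0.587 ± 0.0331 in LLC1 and 1.46 ± 0.0689 in MLE12, ranges of 0.557 to 0.620 in LLC1 and 1.38 to 1.53 in MLE12 that did not overlap. The ID sum in this ratio rests on the Id2 length of 1270 bases. It is smaller with the 2438 bases of GENCODE M21, above all in LLC1, where Id2 is the larger part.

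Most further pathway genes that differed were lower in LLC1. Of 63 further pathway genes, 44 were tested, and 15 were higher in LLC1, 26 were lower in LLC1 and 3 were not called. That is 93.2% called and 54.5% over 2-fold, beside 81.6% and 33.7% of all genes tested. Several, such as Chrdl1, Nog, Dlx5, Bmper and Chrd, had few counts in LLC1, and Rgma few in MLE12, so they passed the filter only through the line where they were high. These shares are therefore a description and nothing is read from their distance to the background. Their median log2 fold change was -0.65, beside 0.02 over all genes tested. Smad6, Smad7 and Bambi stand in 2 of the lists described next. The direction counts of these lists stand beside 40.7% higher and 40.9% lower in LLC1 among all genes tested, and are a description as well.

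Among other BMP-type ligands, 5 of 11 were tested, with 1 higher in LLC1 (Gdf7), 2 lower in LLC1 (Bmp5 and Bmp8a) and 2 not called (Bmp6 and Bmp8b). Their median was -0.26. Bmp5, a ligand gene of lung and skeletal mesenchyme in mice, stood at 0.532, 0.449, 0.599 and 0.894 CPM in LLC1, against 155, 165, 160.2 and 180.5 CPM in MLE12 (-8.05 ± 0.10, adjusted p = 7.6e-21). LLC1 replicate 4 was the highest of its line for Bmp5 as it was for Bmp4. Per length, Bmp5 made up 21.0 ± 1.90% of the summed Bmp2, Bmp4, Bmp5 and Bmp7 level in LLC1, against 82.7 ± 0.907% of a far larger sum in MLE12. Bmp8b, not in this sum, stood at 1.91 ± 0.198 CPM per kb in LLC1 and 1.81 ± 0.135 CPM per kb in MLE12. The means of Gdf7 and Bmp8a were under 1 CPM in both lines.

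Among other extracellular antagonists and modulators, 10 of 16 were tested, with 1 higher in LLC1 and 9 lower, and the median was -3.79. Noggin, the antagonist encoded by Nog, stood at 0.0841 ± 0.0457 CPM in LLC1, against 18.3 ± 1.14 CPM in MLE12 (-7.78 ± 0.17, adjusted p = 8.7e-19). Chordin-like Chrdl1 had 1 count in LLC1 and 472 in MLE12, a ratio of 331 for MLE12 over LLC1 with a 95% counting interval of 59.2 to 13116. That count lay in LLC1 replicate 3: the fitted log2 fold change was -7.89 with it and -9.70 without that library, where LLC1 is at 0 and the fitted value is no bound. Fstl3, an inhibitor of activin and related ligands, was the gene higher in LLC1 (5.91 ± 0.745 CPM, against 0.284 ± 0.0744 CPM in MLE12; 4.35 ± 0.19, adjusted p = 4.3e-14). Chrd, the chordin gene, was chosen after its values were seen and stood at 0.370, 0.0187, 0.0620 and 0.209 CPM in LLC1, against 24.5 ± 1.04 CPM in MLE12 (-7.27 ± 0.23, and -7.93 without LLC1 replicate 1). Grem1 made up 99.6 ± 0.269% of the summed Grem1, Nog and Chrd level per length in LLC1 and 0.292 ± 0.162% in MLE12, while Nog made up 0.273% in LLC1 and 71.7 ± 1.17% in MLE12. These shares leave out the modulator genes Twsg1 and Fstl1, also chosen after their values were seen. Twsg1 stood at 16.4 CPM per kb in LLC1 and 27.9 CPM per kb in MLE12. Fstl1 stood at 6.46 CPM per kb in LLC1 and 134.5 CPM per kb in MLE12. The ratio of Grem1 to the summed Bmp2, Bmp4 and Bmp7 level per length was 33.0 ± 7.22 in LLC1 and 0.00510 ± 0.00285 in MLE12. That ligand sum was 0.568 ± 0.117 CPM per kb in LLC1 and 8.59 ± 0.480 CPM per kb in MLE12. It leaves out the other ligand genes, of which Bmp8b alone stood above it in LLC1, at 1.91 CPM per kb. The ratio thus depends on which ligand genes are summed.

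**Figure D4:**
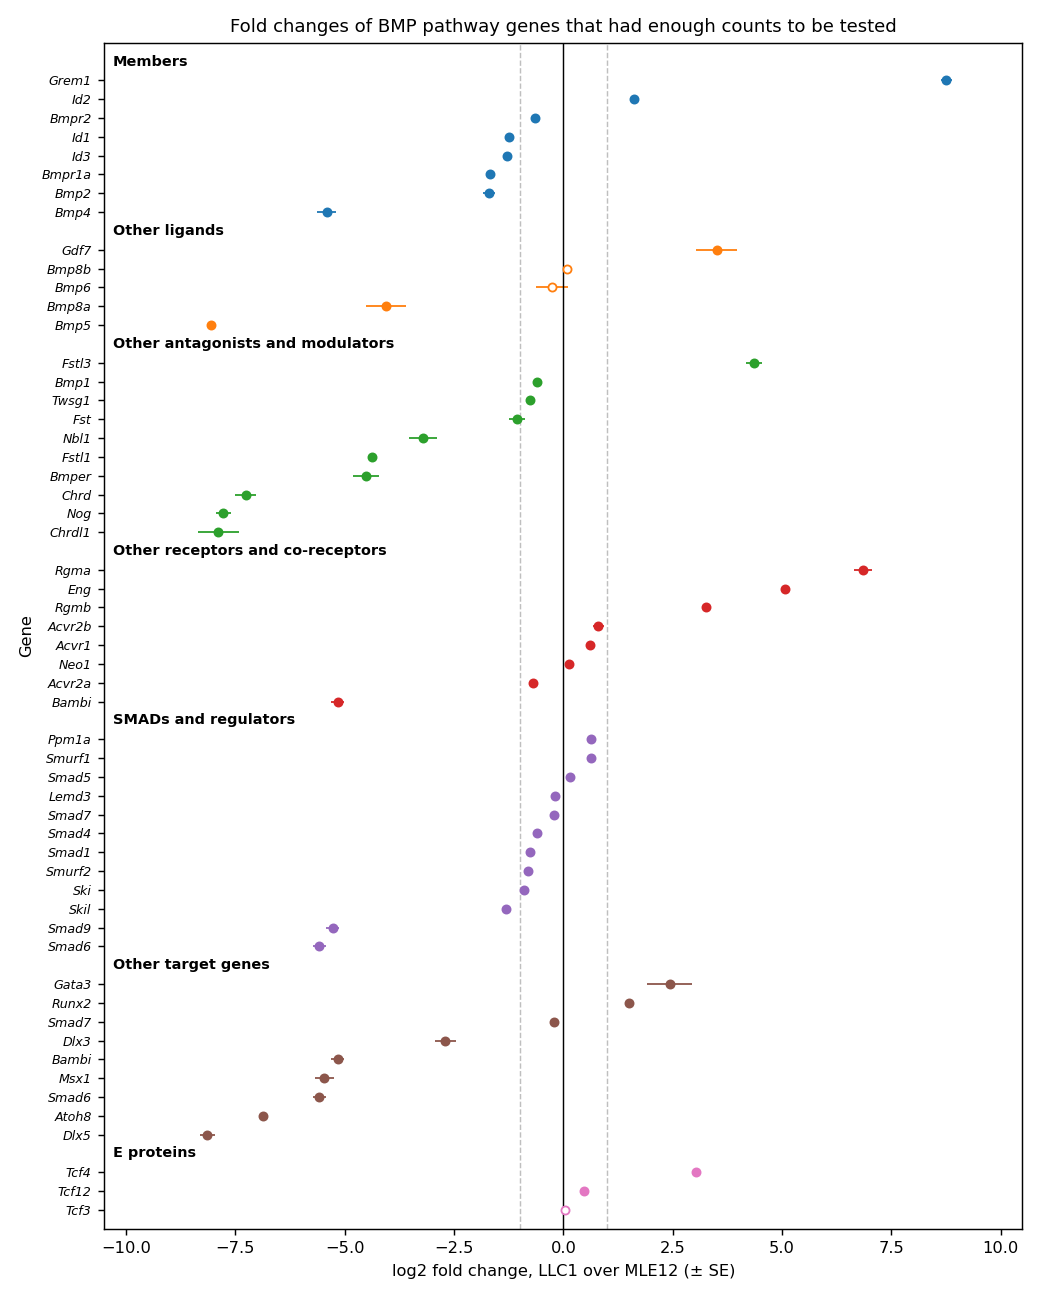
Log2 fold change, LLC1 over MLE12, ± SE, of each tested gene, grouped by role; filled points passed the adjusted p threshold of 0.05, open points did not, and dashed lines mark a fold of 2. Among the antagonist genes, Grem1 at 8.76 and Fstl3 at 4.35 lie right of 0 and the others left; among the ligand genes, Gdf7 at 3.504 and the uncalled Bmp8b at 0.08 lie right and the others left; the co-receptor genes Rgma at 6.86 and Eng at 5.06 lie right.

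Of 10 other receptors and co-receptors, 8 were tested, with 6 higher in LLC1 and 2 lower, and the median was 0.71. Against a minimum fold of 2, 3 of the higher genes and 1 of the lower genes passed. The smallest change among the 6 was that of Neo1, at 0.13 ± 0.04. Rgma, a co-receptor of the repulsive guidance family, stood at 10.1 ± 0.664 CPM in LLC1, against 0.0835 ± 0.0527 CPM in MLE12 (6.86 ± 0.20, adjusted p = 1.4e-16). Eng, which encodes endoglin, a co-receptor for BMP9 that is abundant in endothelium, stood at 45.4 ± 2.76 CPM in LLC1, against 1.37 ± 0.167 CPM in MLE12 (5.06 ± 0.08, adjusted p = 1.9e-20). Of the 6 endothelial markers, Tek was lower in LLC1 (0.0563 CPM, against 2.95 CPM in MLE12; -5.57 ± 0.42, adjusted p = 1.5e-09), Pecam1 and Vwf were not called, and Kdr, Cdh5 and Cldn5 were too low to be tested. The means of these other 5 markers lay between 0.0304 and 0.290 CPM in LLC1 and between 0.00964 and 0.318 CPM in MLE12. Bambi, a decoy receptor gene that BMPs induce, stood at 0.384 ± 0.111 CPM in LLC1, against 14.0 ± 1.42 CPM in MLE12 (-5.16 ± 0.15, adjusted p = 1.0e-16). The type II receptor gene Acvr2a stood at 17.7 ± 2.32 CPM in LLC1, against 28.8 ± 1.76 CPM in MLE12 (-0.70 ± 0.08, adjusted p = 1.5e-07).

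The SMAD genes and their regulators numbered 3 higher in LLC1 and 9 lower among 12 tested of 13 listed, with a median of -0.68. Smad9, a receptor-regulated SMAD gene, stood at 0.406 ± 0.150 CPM in LLC1, against 15.6 ± 0.988 CPM in MLE12 (-5.28 ± 0.15, adjusted p = 7.7e-17). The inhibitory Smad6 stood at 0.376 ± 0.129 CPM in LLC1, against 17.8 ± 1.21 CPM in MLE12 (-5.58 ± 0.15, adjusted p = 2.1e-17). Smad1 (-0.76 ± 0.05, adjusted p = 3.0e-11) and the common partner Smad4 (-0.60 ± 0.04, adjusted p = 6.8e-11) differed less. Smad5 was slightly higher in LLC1 (0.15 ± 0.04, adjusted p = 0.0030), a call that ended when libraries were scaled by their totals alone (0.05, adjusted p = 0.306). Per length, Smad5 made up 75.6 ± 0.887% of the summed Smad1, Smad5 and Smad9 level in LLC1 and 54.3 ± 0.504% in MLE12, and Smad9 0.435 ± 0.164% in LLC1 and 13.3 ± 0.493% in MLE12. The phosphatase gene Ppm1a (0.64 ± 0.04, adjusted p = 1.5e-11) and the ubiquitin ligase gene Smurf1 (0.63 ± 0.05, adjusted p = 8.1e-10) were higher in LLC1.

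Of 13 other target genes, 9 were tested, with 2 higher in LLC1 and 7 lower, and the median was -5.16. Of the 7 lower, Dlx5, Msx1, Dlx3, Smad6, Bambi and Atoh8 had LLC1 means of only 0.0522 to 0.434 CPM. Gata3, 1 of the 2 higher, was also low, at 0.277 CPM in LLC1. The median and most of these calls thus rest on few counts in 1 or both lines. Dlx5, a homeobox gene of bone and limb development, stood at 0.0522 ± 0.0308 CPM in LLC1, against 14.9 ± 0.415 CPM in MLE12 (-8.14 ± 0.18, adjusted p = 1.0e-18). Atoh8, a helix-loop-helix factor gene, stood at 0.434 ± 0.0746 CPM in LLC1, against 50.4 ± 2.68 CPM in MLE12 (-6.87 ± 0.10, adjusted p = 1.5e-21). Runx2, a bone transcription factor gene, was higher in LLC1 (72.1 ± 1.29 CPM, against 25.4 ± 1.12 CPM in MLE12; 1.505 ± 0.05, adjusted p = 2.9e-16). The fourth ID gene, Id4, was too low to be tested, at 0.0535 CPM in LLC1, against 0.0484 CPM in MLE12.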

How the data were processed

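Poly-A RNA of 8 samples, 4 libraries per line, was sequenced as paired reads, per the labels' protocols. The authors deposited raw counts per gene; the submitters' processing notes name CASAVA, TopHat2, featureCounts and edgeR with build mm10. Versions, the counting strand and the treatment of reads with several alignments are not given in the sources used here. Gene lengths are those of the deposited table. Totals were 46840648 to 76722481 counts, and floors (3 counts) cover counting error only.

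The counts went through edgeR 4.0.16 (R 4.3.3): filterByExpr, TMM scaling, glmQLFit with robust estimation, glmQLFTest and glmTreat against a fold of 2, on all 8 libraries with no covariate. The SE is the log2 fold change over the square root of F; the interval of Tcf3 is 1.96 SE each way. On counts simulated for 18546 genes, the LLC1 over MLE12 fit called 42 of 50 genes changed 1.5-fold, 50 of 50 each at 2, 4 and 8-fold, and 12 of 18346 unchanged genes. The simulation took MLE12 means for both lines and changed few genes, equally in both directions. It therefore does not give the rate of false calls in these data, where 81.6% of genes were called. Libraries of a line differed by more than sampling noise, with a chi-square of 6.81 to 58.4 per degree of freedom. Members and lists were chosen with earlier results of these data known. Named from each further list are the called genes with a mean of 1 CPM or more in the higher line whose changes were largest, up to 2 each way, and always the E proteins, Smad1, Smad4, Smad5 and Smad9. Promoter windows are RefSeq's on GRCm38.p6. Alternatives were DESeq2 1.42.0, limma 3.58.1 (voom), other scalings and filters, a replicate block, libraries left out in turn, library totals or TPM for levels and, added later, GENCODE M21 lengths.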

Additional observations from a re-analysis of the deposited data

Results flagged for a closer look

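Over the 34 genes named by rule, 67 groups of 4 libraries with any spread were examined for a library far from the others, and 4 stood out; chance marks about 1 group in 20. The ratio of the gap to the whole range was 1.00 for Bmpr1b in LLC1, where replicate 1 held 0.0462 CPM and the other 3 held 0. It was also 1.00 for Chrdl1 in LLC1, where replicate 3 held 0.0207 CPM and the others 0. Both rest on 1 or 2 counts. Ppm1a in LLC1 had a ratio of 0.840, with 199.95 CPM in replicate 3 and 193 to 194 CPM in the others. Smad6 in MLE12 had a ratio of 0.850, with 19.6 CPM in replicate 1 and 17.0 to 17.4 CPM in the others. The causes were not tested.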

How the results depend on the processing

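All 8 tested BMP and ID genes kept their direction and their call under each of 16 alternatives. The largest move was that of Bmp4, from -6.05 to -5.19 with libraries left out in turn; Grem1 ranged from 8.52 to 9.10. Counts over all genes were 6478 to 8609 higher in LLC1, 6390 to 8817 lower in LLC1 and 4841 to 7704 over 2-fold, all within 1.5 times of the values given. With library totals alone the median of all genes was -0.08, and 6826 genes were higher in LLC1 and 8235 lower. With at least 1 CPM in 4 libraries, fewer low genes were tested: other ligands numbered 0 higher and 1 lower in LLC1, and 1 other target gene was higher. Tcf3, never called, was at -0.0578 with library totals alone and -0.0024 without a filter, and ranged from -0.0209 to 0.0946 with libraries left out. With a replicate block the counts were 7380 higher and 7415 lower in LLC1, Bmp4 stood at -5.44, and none of the 33 named gene results changed its call. The replicate numbers pair nothing by the labels: same-numbered libraries correlated at -0.04, 0.15, 0.13 and -0.15 in their deviations across genes, and 4 of 8 libraries correlated best with their own number. With GENCODE M21 lengths the shares of Id1, Id2 and Id3 were 40.6%, 19.6% and 39.7% in LLC1 and 48.1%, 3.24% and 48.7% in MLE12. Those of Nog and Chrd were 73.1% and 26.6% in MLE12, and those of Smad1 and Smad5 were 22.6% and 76.9% in LLC1 and 30.8% and 55.6% in MLE12; the longer or shorter gene models set these moves. TPM values were 2.07 to 2.65 times the level per kilobase. TPM and library totals scale all genes of a library by the same factor, so shares within a library cannot change under them. Depth limits Bmp7 and Bmpr1b, which hold 0 to 4 counts per library.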
